A study of Mus musculus with 45 samples.

Results

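The hearts of obese mice that had breathed sidestream cigarette smoke (DIO-SS, 8 arrays) were compared with the hearts of obese mice that had breathed mainstream smoke (DIO-MS, 6 arrays). The 14 arrays were taken by their titles from a series of 45. All 14 mice were male C57BL/6 with diet-induced obesity (DIO), on pellets in which fat supplied 60 kcal%, begun at 6 weeks of age, 9 weeks ahead of exposure, and kept up to the end. At 15 weeks old they entered nose-only exposure, and had 8 exposures of 5 hours a day within 2 weeks. Hearts were collected on the day after the last exposure, and each array carried RNA from a different mouse. The 8 obese controls (DIO-SC) breathed filtered air. Regular weight mice (RW) on a diet with about 5 kcal% fat, 8 after mainstream smoke (RW-MS) and 7 after sidestream smoke (RW-SS), served only to ask whether a difference was particular to the obese mice. By the labels, the air controls and the regular weight mice had the same age at exposure and the same exposure schedule.

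The labels call these mice obese and give no body weights. One protocol label mentions LPS, but the titles and the treatment label name smoke, and these were followed. The sources used here give no smoke concentrations, no hour of collection and no scan batches. The kind of smoke and its dose therefore cannot be told apart. The tissue label was borne out by its markers: the 10 cardiomyocyte genes (among them Myh6, Tnnt2 and Ryr2) lay between 11.81 and 14.66 log2 units on the 14 arrays, above the 95th percentile of all gene means (10.67), and 0 of 10 differed between the smokes.

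Mainstream smoke is drawn through the cigarette by a puff, and sidestream smoke drifts from the smouldering tip between puffs. The smouldering tip burns cooler, and the mix of tar, gases and particles differs. Polycyclic aromatic hydrocarbons in either smoke bind the aryl hydrocarbon receptor (AHR), a transcription factor that switches on Cyp1a1 and other genes of detoxification, in the lung and in organs reached by the blood. The heart has its own circadian clock, in which BMAL1 and CLOCK drive genes such as Dbp and Nr1d1 whose products swing over the day and set the timing of metabolism and conduction.

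Sidestream smoke left the obese hearts with a Cyp1a1 signal 2.1-fold below that after mainstream smoke, with lower mRNA of the clock genes Dbp, Hlf, Bhlhe40 and Nr1d1, of Zbtb16 and of the endothelin receptor gene Ednrb, and with higher mRNA of the matrix protease gene Mmp14 and the tight junction gene Cldn5. Across all genes, 237 of 9295 passed the threshold (limma, Benjamini-Hochberg adjusted p under 0.05), which is 2.55% of those tested. Of these, 148 were higher (1.59%) and 89 lower (0.958%) after sidestream smoke. At an unadjusted p under 0.05 there were 2067 genes (22.2%). Differences were small: the median size among the 237 was 0.23 log2 units, 95 genes reached 1.2-fold (1.02%), and 4 reached 1.5-fold (0.043%), of which 3 were lower and 1 higher. The groups of arrays did not overlap for 112 genes (1.2% of those tested), 76 higher (0.818%) and 36 lower (0.387%).

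The split between higher and lower genes depended on the scaling of the arrays. After a further quantile normalization 100 genes passed, 38 higher and 62 lower, and after loess normalization of every array 123 passed, 50 higher and 73 lower. The genes too dim to be tested lay 0.015 to 0.058 log2 units above the mean of all arrays in DIO-MS 1 to 4, at -0.049 and -0.064 in DIO-MS 5 and 6, and between -0.106 and -0.008 in the 8 DIO-SS arrays. Median differences were -0.039 among the dimmest of 4 equal classes of tested genes by level and 0.041, 0.054 and 0.033 in the brighter classes, against -0.006, 0.021, 0.013 and 0.005 after loess. The plot of differences against expression level shows this bend. With the level of the dim genes as a covariate 29 genes passed, 24 of them among the 237. Leaving out DIO-MS 5 and 6 gave 1490 genes, and leaving out DIO-MS 2 gave 27.

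**Figure D1:**
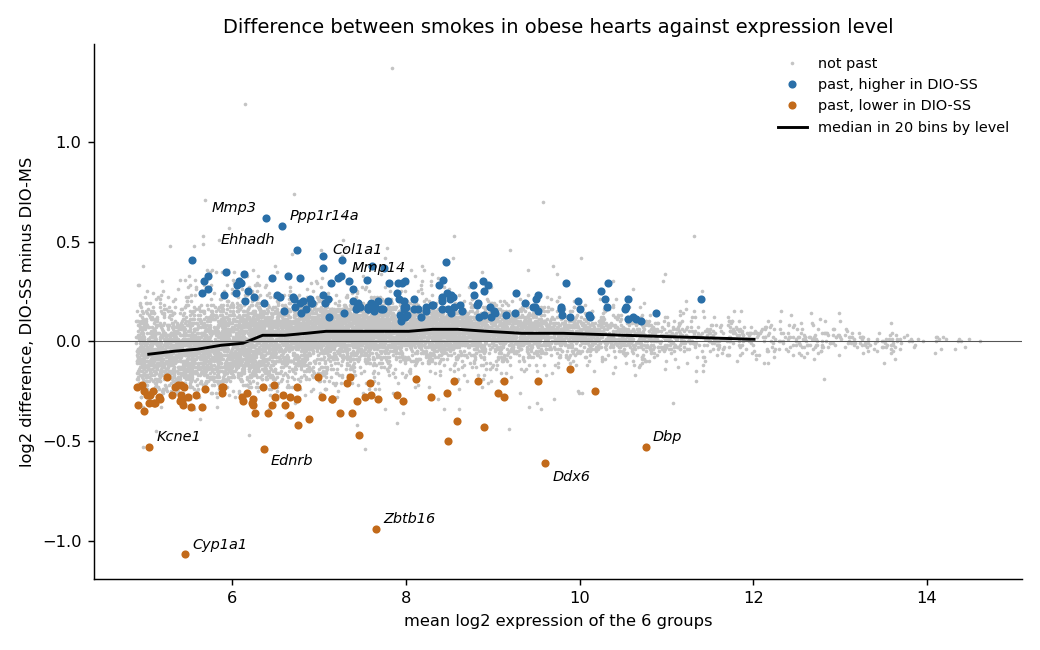
Log2 difference (DIO-SS minus DIO-MS, vertical axis) against mean log2 expression over the 6 groups (horizontal axis) for the 9295 genes tested. Grey points did not pass, blue points passed and were higher after sidestream smoke, orange points passed and were lower, and the black line joins medians of 20 bins by level. Cyp1a1 and Zbtb16 are the lowest points, at -1.07 and -0.94, and the black line runs below 0 at the dim end and above 0 in the middle.

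A core of 14 genes passed in the fit above, in all of the other fits on genes that tested them and without any 1 of the 14 arrays, which is 0.151% of the genes tested. Without the 3 fits chosen after seeing the data there were 19 (0.204%). Lower after sidestream smoke were Cyp1a1, Zbtb16, Ddx6, Ednrb, Dbp, Hlf, Bhlhe40, Nr1d1, Alkbh5 and Dusp7, and higher were Mmp14, Cldn5, Prodh and Fads3. Their largest adjusted p over all these limma fits was 0.0442 (Dusp7). The limma fit with every probe set on its own was not counted among them. In it the probe set used passed for each of the 14. Another probe set did not pass for Mmp14 (adjusted p = 0.743), Ednrb (0.56), Ddx6 (0.958), Zbtb16 (0.0636), Fads3 (0.173) and Dusp7 (0.206). The plot of 12 genes by array shows most of them beside filtered air. Alkbh5, Dusp7 and Fads3 fell outside the rule for naming genes and were chosen after their values were seen.

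**Figure D2:**
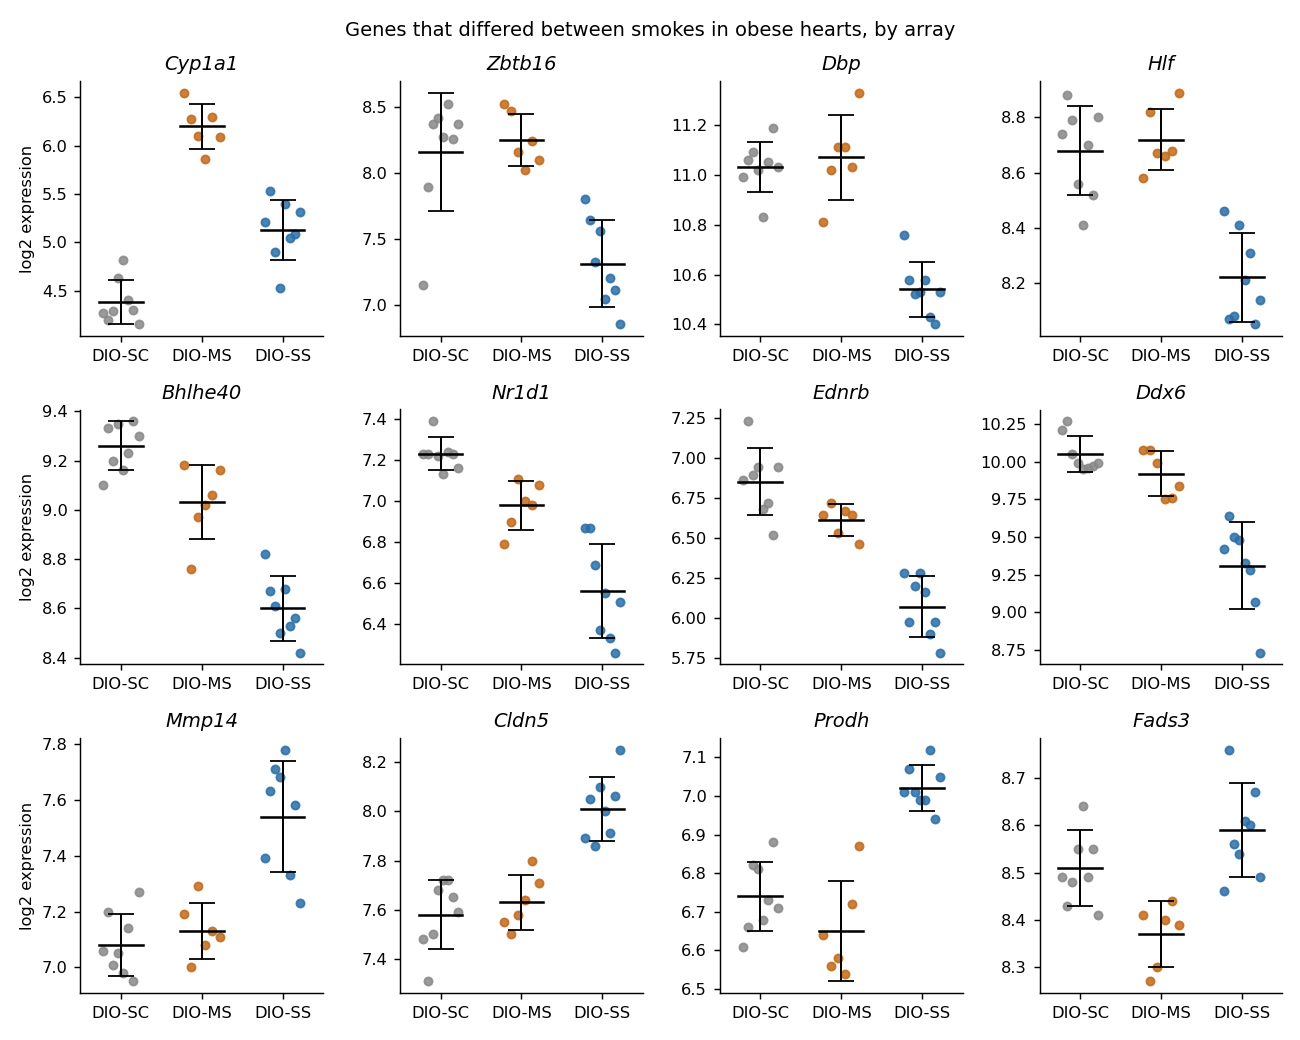
Log2 expression of 12 genes (vertical axes, which do not start at 0) in the obese mice: filtered air (DIO-SC, 8 arrays, grey), mainstream smoke (DIO-MS, 6 arrays, orange) and sidestream smoke (DIO-SS, 8 arrays, blue), each point 1 array, with the group mean and SD in black. Cyp1a1 stood between air and mainstream smoke after sidestream smoke, while Zbtb16, Dbp, Hlf, Mmp14 and Cldn5 lay near their air level after mainstream smoke only.

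Cyp1a1, which encodes the cytochrome P450 that oxidises polycyclic aromatic hydrocarbons, was the gene with the smallest adjusted p. Its log2 expression ran from 5.86 to 6.55 in the 6 DIO-MS hearts (median 6.19) and from 4.53 to 5.53 in the 8 DIO-SS hearts (median 5.15). Every DIO-SS heart lay below every DIO-MS heart. The difference was -1.07 ± 0.13 (SE), a 2.1-fold lower signal, with a limma adjusted p of 1.55e-06. Filtered air gave 4.15 to 4.82 (median 4.30), and both smokes gave higher values: mainstream smoke by 1.82 log2 units (adjusted p = 9.74e-14, limma) and sidestream smoke by 0.74 (adjusted p = 1.2e-05). These comparisons share the air arrays. All 8 air values lie below 4.90, the mean under which genes were left out as too dim, so Cyp1a1 passed that filter through other groups and the size of its differences from air is uncertain.

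Cyp1a1 was alone in passing among the genes of the AHR list. Of 7 tested, 1 was lower and 6 did not pass, and the median over the list was 0.06 against 0.03 over all genes. Counts for this list and those below are to be read beside 1.59% higher and 0.958% lower over all genes. Cyp1b1, a related P450 of the same receptor's battery, ranged from 6.86 to 7.80 after mainstream smoke (median 7.06) and from 7.13 to 7.49 after sidestream smoke (median 7.27), with adjusted p = 0.555 in limma. Tiparp encodes an ADP-ribosyltransferase that damps the receptor. It ranged from 7.76 to 8.05 and from 8.00 to 8.19, a difference of 0.19 ± 0.06 (adjusted p = 0.0763). On this probe set its direction was opposite to that of Cyp1a1, and its other probe sets gave 0.20 and -0.07.

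All 3 genes hold the core letters of the AHR binding element within the 250 bases before their start in the RefSeq table (GRCm38.p6). The sequences are shown because these genes of one receptor's battery had different values. They run 5′ to 3′ on the gene's strand, at chr9:57697363-57697612 (plus strand) for Cyp1a1, chr17:79715062-79715311 (minus strand) for Cyp1b1 and chr3:65528197-65528446 (plus strand) for Tiparp. Capitals mark GCGTG or its reverse complement CACGC, searched on both strands.

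Cyp1a1: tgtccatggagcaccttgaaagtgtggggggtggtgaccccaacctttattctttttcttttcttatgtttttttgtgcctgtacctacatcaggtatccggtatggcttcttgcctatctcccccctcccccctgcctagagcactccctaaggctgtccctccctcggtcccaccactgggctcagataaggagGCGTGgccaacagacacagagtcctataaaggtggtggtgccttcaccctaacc

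Cyp1b1: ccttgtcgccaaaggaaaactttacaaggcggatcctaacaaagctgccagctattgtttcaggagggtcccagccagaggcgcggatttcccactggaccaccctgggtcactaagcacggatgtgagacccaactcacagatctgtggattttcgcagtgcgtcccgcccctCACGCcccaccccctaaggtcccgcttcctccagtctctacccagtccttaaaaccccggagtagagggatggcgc

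Tiparp: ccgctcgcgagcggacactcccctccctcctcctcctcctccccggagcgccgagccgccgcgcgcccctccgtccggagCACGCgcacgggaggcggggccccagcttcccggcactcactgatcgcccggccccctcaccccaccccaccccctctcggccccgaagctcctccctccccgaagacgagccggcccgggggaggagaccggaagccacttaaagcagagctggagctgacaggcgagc

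The match begins 54 bases before the start of Cyp1a1, 76 before that of Cyp1b1 and 170 before that of Tiparp. Of 32851 such windows in the table, 28.2% hold this 5-letter motif, so a match is common. Dbp holds 2 matches, Hlf 4, and Nr1d1 and Ednrb 1 each. The E-box CACGTG, which BMAL1 and CLOCK bind, is in 6.0% of the windows and in none of those of Dbp, Hlf and Nr1d1. Bhlhe40 and Zbtb16 are not in this table.

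Among genes of the antioxidant response driven by NRF2, a factor activated by electrophiles, 1 of 25 tested passed, Gsta4, and the median was 0.08. Gsta4, a glutathione transferase for lipid aldehydes, ranged from 10.19 to 10.35 after mainstream smoke (median 10.25) and from 10.32 to 10.62 after sidestream smoke (median 10.48). All 8 DIO-SS hearts lay above the DIO-MS mean, and the ranges met at their ends. The difference was 0.21 ± 0.05 (adjusted p = 0.0173, limma). With the dim-gene covariate the adjusted p was 0.117. The quinone reductase gene Nqo1 differed by 0.06 (adjusted p = 0.703), the haem oxygenase gene Hmox1 by 0.05 (0.828), the glutathione synthesis gene Gclm by 0.08 (0.595) and the sulfiredoxin gene Srxn1 by 0.17 (0.0634). Tfrc, the transferrin receptor gene, was at -0.31 ± 0.20 (adjusted p = 0.366).

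Of 8 clock output genes tested, 3 were lower after sidestream smoke (Dbp, Hlf and Bhlhe40), 0 higher and 5 did not pass, with a list median of -0.07. Over all genes 0.958% were lower. These genes swing over the day, the hour at which each group was collected is not given in the sources used here, and its part in the differences of the clock genes was not tested. Dbp encodes a PAR-domain factor that relays the clock to metabolic genes. It ranged from 10.81 to 11.33 in DIO-MS (median 11.07) and from 10.40 to 10.76 in DIO-SS (median 10.53), with no overlap. The difference was -0.53 ± 0.08 (adjusted p = 0.000726, limma), and the second Dbp probe set gave -0.57.

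Hlf, a second PAR-domain factor, ran from 8.58 to 8.89 after mainstream smoke (median 8.68) and from 8.05 to 8.46 after sidestream smoke (median 8.18), again without overlap. It differed by -0.50 ± 0.09 (adjusted p = 0.003, limma). Bhlhe40, a repressor also called DEC1 that binds E-boxes, ran from 8.76 to 9.18 (median 9.04) and from 8.42 to 8.82 (median 8.59). Its ranges overlapped at their ends, and all 8 DIO-SS hearts lay below the DIO-MS mean. The difference was -0.43 ± 0.07 (adjusted p = 0.001).

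In the core clock 1 of 12 genes was lower, 1 higher and 10 did not pass. Nr1d1 encodes REV-ERBα, the repressor of Bmal1. Its log2 expression was 6.79 to 7.11 after mainstream smoke (median 6.99) and 6.26 to 6.87 after sidestream smoke (median 6.53), overlapping at the ends, with a difference of -0.42 ± 0.08 (adjusted p = 0.00643, limma). Its paralog Nr1d2 differed by -0.13 (adjusted p = 0.125). Arntl, the Bmal1 gene, was at 0.33 ± 0.13 with an adjusted p of 0.145. Per2, of the feedback arm, was at -0.24 ± 0.10 (0.127), and Nfil3, a repressor that opposes Dbp at shared sites, at 0.23 ± 0.09 (0.133).

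Csnk1d encodes casein kinase 1δ, which phosphorylates the PER proteins. It ran from 9.28 to 9.56 in DIO-MS (median 9.43) and from 9.59 to 9.66 in DIO-SS (median 9.63), without overlap, a difference of 0.21 ± 0.04 (adjusted p = 0.00787, limma). The call was lost with the dim-gene covariate (0.117), with the mean of its 5 probe sets, and without DIO-MS 2 (0.0512).

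Against filtered air, Dbp differed by -0.49 after sidestream smoke (adjusted p = 1.19e-05) and by 0.04 after mainstream smoke (0.881). Hlf gave -0.46 (0.000121) and 0.04 (0.885). Bhlhe40 gave -0.66 (7.4e-09) and -0.23 (0.0554), and Nr1d1 -0.67 (6.85e-08) and -0.25 (0.074). In the regular weight mice, which are other animals, the difference between the smokes was -0.70 for Dbp (adjusted p = 5.24e-07), -0.40 for Hlf (0.00574), -0.39 for Bhlhe40 (0.000815) and -0.24 for Nr1d1 (0.0622). The test of the difference between diets did not pass for any of these 4 genes, with adjusted p between 0.336 and 0.843.

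Zbtb16 encodes PLZF, a zinc finger repressor that glucocorticoids induce in several tissues. It ranged from 8.02 to 8.52 after mainstream smoke (median 8.20) and from 6.85 to 7.80 after sidestream smoke (median 7.26), with no overlap. The difference was -0.94 ± 0.16 (adjusted p = 0.001, limma), a 1.91-fold lower signal, and -0.51 on the gene's second probe set (adjusted p = 0.0636). Against air, mainstream smoke gave 0.09 (adjusted p = 0.833) and sidestream smoke -0.84 (3.7e-05). In regular weight mice the smokes differed by 0.06, and the test of the difference between diets gave -1.0 (adjusted p = 0.00638). With the dim-gene covariate the latter was -0.86 and did not pass (0.0973).

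Zbtb16 was the only fall past the threshold in the list of glucocorticoid-responsive genes. Of 25 tested, 2 were higher (Glul and Cdkn1a), 1 lower (Zbtb16) and 22 did not pass, with a median of 0.08. Glul, glutamine synthetase, ran from 11.16 to 11.29 in DIO-MS (median 11.23) and from 11.31 to 11.62 in DIO-SS (median 11.44), without overlap, with a difference of 0.21 ± 0.06 (adjusted p = 0.0361, limma). Cdkn1a, the cell cycle inhibitor p21, ran from 6.92 to 7.29 (median 7.0) and from 7.23 to 7.66 (median 7.34), overlapping at the ends, with a difference of 0.32 ± 0.08 (adjusted p = 0.0345) and of 0.07 on its second probe set (0.577).

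Growth arrest genes of the p53 list had 2 of 17 higher, Cdkn1a and Gadd45g, against 1.59% over all genes. Gadd45g, a stress-induced inhibitor of the cell cycle, ran from 6.10 to 6.55 in DIO-MS (median 6.41) and from 6.49 to 6.97 in DIO-SS (median 6.71), a difference of 0.33 ± 0.09 (adjusted p = 0.0477, limma). Against air, mainstream smoke gave -0.43 for Cdkn1a (adjusted p = 0.00168) and -0.37 for Gadd45g (0.0148), while sidestream smoke gave -0.11 (0.305) and -0.05 (0.721). Ddit4, an inhibitor of mTOR, differed by 0.32 ± 0.19 between the smokes (adjusted p = 0.302). The calls of Glul, Cdkn1a and Gadd45g were lost with loess (0.0676, 0.0658 and 0.0659) and with the dim-gene covariate (0.225, 0.24 and 0.291).

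In bulk heart RNA, fewer cells of a type and less RNA per cell cannot be told apart. Ednrb encodes the endothelin B receptor, through which endothelium clears endothelin and releases nitric oxide. It ran from 6.46 to 6.72 after mainstream smoke (median 6.64) and from 5.78 to 6.28 after sidestream smoke (median 6.06), without overlap. The difference was -0.54 ± 0.10 (adjusted p = 0.00155, limma), and a second, dimmer probe set gave -0.07 (0.56). Against air the probe set used gave -0.78 after sidestream smoke (6.6e-08) and -0.24 after mainstream smoke (0.161).

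Cldn5, the claudin that seals endothelial junctions, was higher: 7.5 to 7.80 in DIO-MS (median 7.61) and 7.86 to 8.25 in DIO-SS (median 8.03), with no overlap. It differed by 0.38 ± 0.07 (adjusted p = 0.00391, limma). It was the 1 endothelial marker of 11 that passed, the median of that list was 0.08, and 11 of 11 lay above 0, against 5799 of 9295 genes in all. The mean level of the endothelial markers ran from -0.10 to 0.10 in DIO-MS and from 0.05 to 0.20 in DIO-SS, and its part in the rise of Cldn5 was not tested. Pecam1, a surface molecule of all endothelium, was at 0.21 ± 0.07 (adjusted p = 0.0668).

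Of 20 angiogenic genes tested, 1 passed, the lymphatic growth factor gene Vegfc. It ran from 5.56 to 6.14 in DIO-MS (median 5.79) and from 5.94 to 6.40 in DIO-SS (median 6.16), overlapping, a difference of 0.35 ± 0.10 (adjusted p = 0.0385, limma). Plxdc1, first described in tumour endothelium, ran from 5.28 to 5.63 (median 5.54) and from 5.65 to 6.16 (median 5.81), just without overlap, a difference of 0.33 ± 0.09 (0.0375). Each of these calls was lost without DIO-MS 4, with adjusted p = 0.129 and 0.119.

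Mmp14 encodes the membrane-bound protease that activates MMP2. Its values were 7.0 to 7.29 after mainstream smoke (median 7.12) and 7.23 to 7.78 after sidestream smoke (median 7.61), which overlapped at the ends. It differed by 0.41 ± 0.07 (adjusted p = 0.00107, limma), and a second, dimmer probe set gave 0.05 (0.743). Mmp3, stromelysin-1, had the largest rise among genes past the threshold, 0.62 ± 0.16 (adjusted p = 0.0277), from 5.88 to 6.58 in DIO-MS (median 6.29) to 6.29 to 7.67 in DIO-SS (median 6.88). Its call was lost without DIO-MS 2 (0.114) and with the dim-gene covariate (0.248). These were the 2 of 10 matrix turnover genes that passed, both higher, against 1.59% higher over all genes. Mmp2, the gelatinase, was at 0.27 ± 0.09 (adjusted p = 0.0705). Timp4, of the same list, went the other way at -0.36 and did not pass. The list median was 0.08, with 7 of 10 genes above 0.

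Among 23 fibrillar collagen and matrix genes 1 passed, Col1a1, the α1 chain of type I collagen, and 21 lay above 0. The list median was 0.19, against 0.03 over all genes, and 0.15 after loess, against 0.01. Col1a1 ran from 6.72 to 7.26 in DIO-MS (median 6.81) and from 7.08 to 7.73 in DIO-SS (median 7.34), overlapping, with a difference of 0.43 ± 0.12 (adjusted p = 0.0441, limma). Its adjusted p was 0.0676 after loess and 0.143 without DIO-MS 2. The second Col1a1 probe set gave 0.25 and did not pass (0.181, limma with every probe set on its own). Postn, periostin of activated fibroblasts, was at 0.46 ± 0.15 (adjusted p = 0.0716), with values from 8.96 to 9.11 and from 9.09 to 9.81. Against air the list median was -0.14 after mainstream smoke and 0.05 after sidestream smoke. The mean level of the fibroblast markers ran from -0.09 to 0.07 in DIO-MS and from -0.06 to 0.34 in DIO-SS, with 1 of 12 past the threshold, and their part in these values was not tested.

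Ppp1r14a encodes CPI-17, a smooth muscle inhibitor of myosin phosphatase. It ran from 5.87 to 6.62 in DIO-MS (median 6.25) and from 6.52 to 7.23 in DIO-SS (median 6.73), overlapping, with a difference of 0.58 ± 0.14 (adjusted p = 0.027, limma). The adjusted p was 0.03 after loess and 0.262 with the dim-gene covariate. Ebf1, a transcription factor of B cells, fat precursors and pericytes, ran from 8.06 to 8.43 (median 8.16) and from 8.37 to 8.84 (median 8.62), a difference of 0.40 ± 0.08 (0.00786). Its call stood without any 1 array and was lost with the dim-gene covariate alone (0.127).

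The mean level of the smooth muscle and pericyte markers ran from -0.43 to 0.05 in DIO-MS and from -0.17 to 0.34 in DIO-SS. Their list median was 0.27 and 0 of 10 passed. The largest rises of all, chosen after their values were seen, did not pass either. Ccn3, a secreted matrix regulator also called Nov, ran from 6.02 to 8.17 in DIO-MS (median 7.06) and from 7.32 to 9.37 in DIO-SS (median 8.50), a difference of 1.37 ± 0.49 (adjusted p = 0.0929, limma). Sost, sclerostin, was at 1.19 ± 0.39 (0.0705), and the smooth muscle genes Cnn1 and Tagln at 0.74 ± 0.28 (0.119) and 0.70 ± 0.26 (0.106). Their spread within groups was wide, with an SD of 1.02 log2 units for Ccn3 in DIO-MS. The part of these markers in the rise of Ppp1r14a was not tested.

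The remaining large rises included Clmp, an adhesion molecule of tight junctions (0.41 ± 0.10, adjusted p = 0.027), Kazald1, a secreted protein of the insulin-like growth factor binding protein family (0.34 ± 0.10, 0.045), and Mustn1, a small nuclear protein of muscle (0.33 ± 0.09, 0.0419). Kazald1 ran from 5.91 to 6.14 in DIO-MS and from 6.18 to 6.55 in DIO-SS and did not overlap. The calls of Clmp, Kazald1 and Mustn1 in limma were lost without DIO-MS 2 (0.0931, 0.134 and 0.14).

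Fatty acid oxidation is the main fuel pathway of the heart. Of its 25 genes tested, 2 were higher, 0 lower and 23 did not pass, with a median of 0.02. Both that passed act in peroxisomes. Ehhadh, the bifunctional enzyme, ran from 6.27 to 6.73 in DIO-MS (median 6.51) and from 6.61 to 7.38 in DIO-SS (median 6.95), overlapping, a difference of 0.46 ± 0.11 (adjusted p = 0.0277, limma). Hsd17b4, the other bifunctional enzyme, was at 0.24 ± 0.07 (0.0415), while its second probe set, about as bright (9.22 against 9.28 over all arrays), gave -0.04 (0.726). Without DIO-MS 2 the adjusted p was 0.103 for Ehhadh and 0.152 for Hsd17b4.

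PPARα senses fatty acids. A separate list held PPAR targets with uptake and thioesterase genes, and Ehhadh was not in it. Several genes of that list lay above 0 without passing. Angptl4, an inhibitor of lipoprotein lipase, was at 0.63 ± 0.28 (adjusted p = 0.166, limma), with 7.27 to 8.39 in DIO-MS and 7.83 to 9.43 in DIO-SS. Pdk4, which restrains pyruvate oxidation, was at 0.34 ± 0.20 (0.297), the uncoupling protein gene Ucp3 at 0.27 ± 0.15 (0.302) and the thioesterase gene Acot1 at 0.12 ± 0.12 (0.58). None of the 19 tested genes of that list passed, and its median was 0.11.

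Prodh, proline dehydrogenase of the mitochondrion, was among the 14 stable genes. It ran from 6.54 to 6.87 in DIO-MS (median 6.61) and from 6.94 to 7.12 in DIO-SS (median 7.01), with no overlap, a difference of 0.37 ± 0.07 (adjusted p = 0.00155, limma). Fads3, of the fatty acid desaturase family, ran from 8.27 to 8.44 (median 8.40) and from 8.46 to 8.76 (median 8.58), just without overlap, a difference of 0.22 ± 0.04 (0.00667). Slc44a2, a choline transporter-like protein, was at 0.37 ± 0.09 on the probe set used (0.0278) and at 0.01 and -0.08 on its other probe sets.

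Fat cell markers varied between hearts. The lipid droplet gene Plin4, also expressed by heart muscle, was the 1 of 8 that passed, at 0.29 ± 0.08 (adjusted p = 0.0417, limma), with 9.60 to 9.98 in DIO-MS and 9.92 to 10.28 in DIO-SS, overlapping at the ends. The mean level of the list ran from -0.72 to 0.50 in DIO-MS and from -0.33 to 0.87 in DIO-SS, and its median was 0.27. With these markers as a covariate 303 genes passed, the 237 among them. DIO-SS 8 carried the highest fat level and was the only one of the 14 arrays with raised lung and airway markers, at 1.08 against -0.33 to -0.01 in the others. Without DIO-SS 8, 125 genes passed, 120 of them among the 237.

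Ddx6 encodes a helicase of mRNA decay and storage. It ran from 9.75 to 10.08 in DIO-MS (median 9.92) and from 8.73 to 9.64 in DIO-SS (median 9.38), without overlap, a difference of -0.61 ± 0.12 (adjusted p = 0.00551, limma). Its other probe sets gave -0.37 and 0.01, so the fall was not shared by all 3. Xrn2, a nuclear exonuclease, was at -0.36 ± 0.10 (0.0419), and at 0.14 and 0.09 on its other probe sets. Atrx, an X-linked chromatin remodeller, was at -0.47 ± 0.11 (0.0165), from 7.6 to 7.88 down to 6.89 to 7.53 without overlap, and between -0.35 and 0.04 on 4 other probe sets. Alkbh5, an RNA demethylase, was at -0.28 ± 0.06 (0.00576).

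Eif4ebp2, which encodes a translation repressor that mTOR phosphorylates, ran from 6.82 to 7.02 in DIO-MS (median 6.98) and from 6.20 to 6.74 in DIO-SS (median 6.64), without overlap. It differed by -0.39 ± 0.07 (adjusted p = 0.00106, limma). The other probe sets of Eif4ebp2 gave between -0.12 and 0.13, and the mean of its 5 probe sets did not pass. Aars, alanyl-tRNA synthetase, was the 1 of 19 ATF4 and amino acid genes that passed, at 0.20 ± 0.05 (0.0277), with no overlap. Its adjusted p was 0.0641 after loess.

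Among 12 ion channel genes 1 passed, against 2.55% of all genes. Kcne1, the subunit that slows the repolarising potassium current, ran from 4.65 to 5.47 in DIO-MS (median 5.16) and from 3.94 to 5.08 in DIO-SS (median 4.56), overlapping, a difference of -0.53 ± 0.15 (adjusted p = 0.0458, limma). It is one of the dimmest genes tested. Its DIO-SS mean, 4.58, lies below 4.90, the mean under which genes were left out as too dim. Kcne1 thus passed that filter through other groups, and the size of its fall is uncertain. The call was lost with loess (0.0801) and without DIO-MS 2 (0.126). Kcnip2, a subunit of the transient outward current, was at 0.28 ± 0.10 (0.0926). Dbh, dopamine β-hydroxylase of sympathetic nerves, was the 1 of 6 nerve markers that passed, at -0.28 ± 0.08 (0.0496), with 7.51 to 7.90 and 7.27 to 7.48 and no overlap. Its adjusted p was 0.149 without DIO-MS 2. The nerve list had a median of -0.03, and 3 of its 6 genes lay above 0, among them S100b at 0.31 and Uchl1 at 0.12.

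Csf1, the macrophage growth factor, ran from 8.48 to 9.47 in DIO-MS (median 8.65) and from 8.16 to 8.52 in DIO-SS (median 8.38), a difference of -0.40 ± 0.09 (adjusted p = 0.0228, limma), and the call was lost without DIO-MS 1 (0.0848). Its other probe sets gave -0.30, -0.14 and 0.13. Ceacam1, a cell adhesion receptor, was at -0.36 ± 0.10 (0.0361), with 8 probe sets all below 0, and its adjusted p was 0.124 without DIO-MS 1. Vpreb3, a gene of B cell precursors, was at -0.36 ± 0.09 (0.0324), and its adjusted p was 0.117 without DIO-MS 2. Dusp7, a phosphatase that switches off ERK kinases, was at -0.26 ± 0.05 (0.00833). Macrophage, T cell and neutrophil markers had 0 members past the threshold, of 12, 5 and 2 tested.

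Of 24 proteasome genes 2 passed, Psmc3 at 0.14 ± 0.04 (adjusted p = 0.0333, limma) and Psmb5 at 0.10 ± 0.03 (0.0441), with a list median of 0.02. Over all genes 2.55% passed. Gabarapl1, which builds autophagosome membranes, was the 1 of 22 FoxO and autophagy genes that passed, at 0.28 ± 0.06 (0.0167), with 8.64 to 8.96 in DIO-MS and 9.0 to 9.33 in DIO-SS and no overlap. With the dim-gene covariate the adjusted p was 0.275, 0.272 and 0.111.

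In 35 of the 53 lists no member passed, 21 of the 35 pathway lists and 14 of the 18 cell type lists. Among these were heat shock (20 genes tested), the unfolded protein response (24), the respiratory chain (30), contraction and calcium cycling (21), interferon (19) and inflammation (20). The medians of the 21 pathway lists ran from -0.04 to 0.11. A list without a call does not show that its genes were equal after both smokes.

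The same comparison was made in the other diet. In regular weight mice 541 genes (5.82%) passed between the smokes, 204 higher (2.19%) and 337 lower (3.63%), and 25 genes passed in both diets in the same direction, 10.5% of those in obese and 4.62% of those in regular weight mice. Of the 25, 19 were lower and 6 higher after sidestream smoke, and 12 further genes passed in both diets in opposite directions. Among the 15 largest falls in obese mice 7 also passed in regular weight mice in the same direction (Dbp, Hlf, Bhlhe40, Ddx6, Atrx, Xrn2 and Csf1), and among the 15 largest rises 0 did. The plot of the 30 genes gives both diets side by side. With only the 15 regular weight smoke arrays in the fit, 4 genes passed in place of 541. The split was 274 higher and 286 lower after loess, and 297 and 236 after quantile normalization.

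The regular weight groups also differed in markers of other tissue. Of 10 atrial muscle genes 5 were higher in RW-SS than in RW-MS and 0 lower, with a list median of 1.05, against 0.02 between the smokes in obese mice. Their mean level was -3.04, -2.54 and -2.48 in RW-MS 2, 6 and 8, against -0.09 to 0.51 in the other RW-MS arrays and -0.15 to 0.79 in RW-SS. Of 3 red cell genes 0 passed, and the median was 0.33 against -0.04 in obese mice, with levels from -0.14 to 0.42 in RW-MS and from 0.04 to 1.1 in RW-SS. On RW-SS 7 the 3′ probe set of Actb exceeded the 5′ one by 1.65 log2 units (1.06 to 1.34 on the other arrays) and that of Gapdh by 0.94 (0.21 to 0.40). With the atrial markers as a covariate 480 genes passed, with the red cell markers 347, without RW-MS 2 292 and without RW-SS 7 364.

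**Figure D3:**
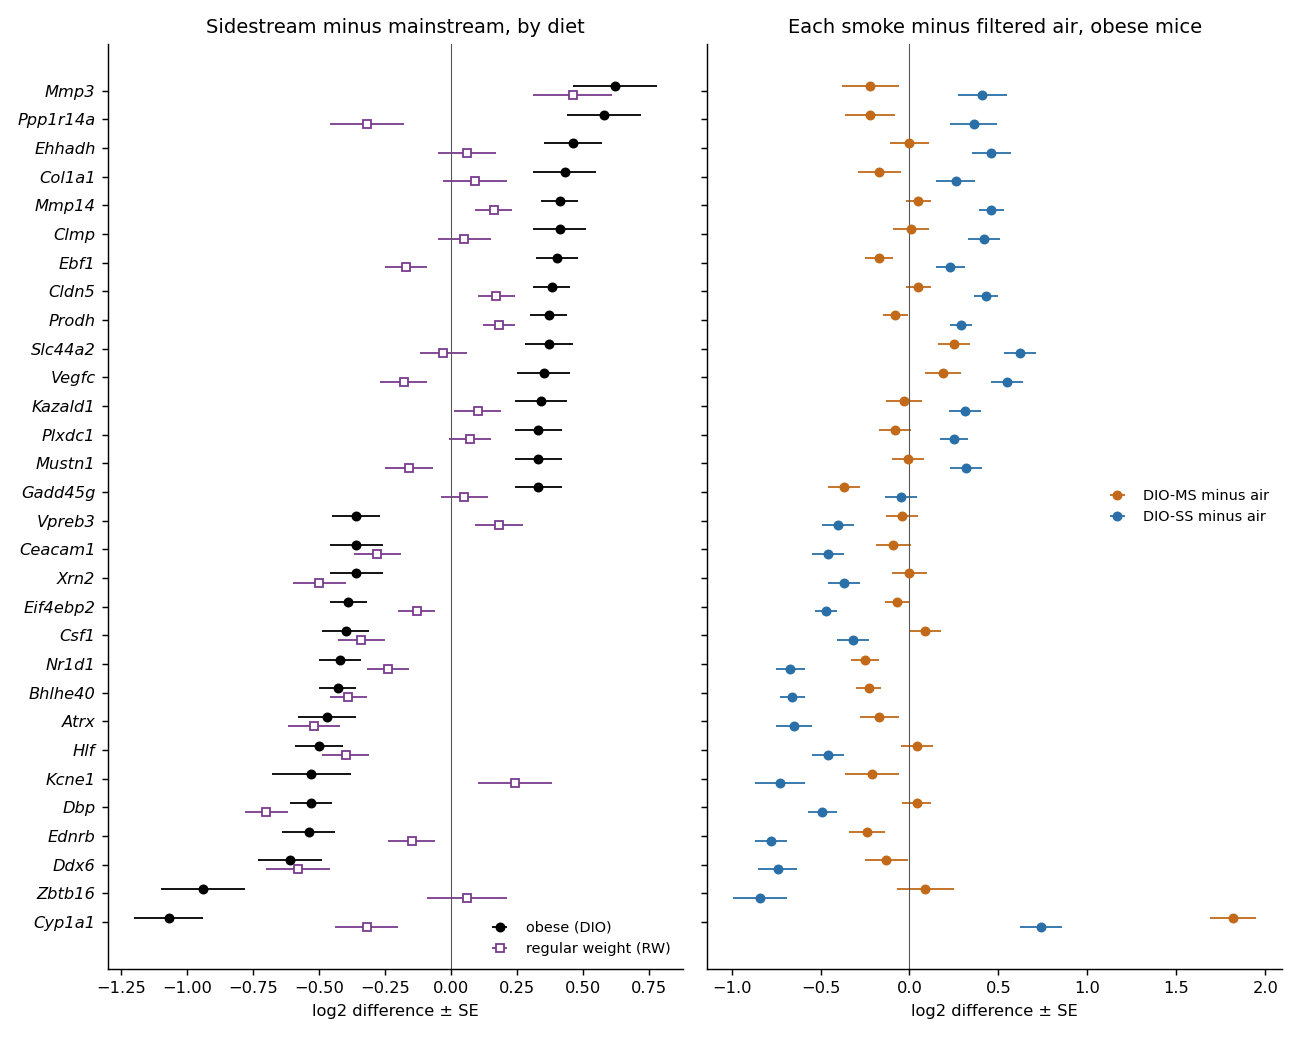
Log2 differences with SE (horizontal axes) for the 15 largest rises and 15 largest falls (vertical axis). Left: sidestream minus mainstream smoke in obese (black circles) and regular weight mice (open squares). Right: mainstream (orange) and sidestream smoke (blue) minus filtered air in obese mice, which share the air arrays. After mainstream smoke most genes lay near 0, with Cyp1a1 at 1.82. After sidestream smoke 13 of 15 rises passed above air and 14 of 15 falls below it. The remaining fall, Cyp1a1, passed above air.

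The test of the difference between diets passed for 784 genes (8.43%), and for 5 of the 15 rises and 4 of the 15 falls. Those rises and falls were chosen by their difference in obese mice, which is part of this test. Cyp1a1 differed by -1.07 in obese and by -0.32 in regular weight mice, an interaction of -0.75 (adjusted p = 0.0101, limma). Rgs9, which speeds the shutdown of G protein signals and had the smallest adjusted p of the interaction, differed by -0.32 in obese and by 0.20 in regular weight mice (interaction -0.52, 0.000122). The other 4 leading genes were Snrpd3, of the spliceosome (0.41, 0.000529), the proteasome gene Psmb5 (0.23, 0.00131), the RNA polymerase subunit gene Polr1d (0.27, 0.00131) and Lrwd1, of the origin recognition complex (0.48, 0.00131). The same regular weight arrays enter here: the interaction passed for 1269 genes with the atrial covariate, 329 with the red cell covariate, 966 without RW-SS 7 and 1225 without RW-MS 8. With the dim-gene covariate 31 genes passed the interaction, and Cyp1a1 (0.0424), Rgs9, Snrpd3, Psmb5, Polr1d and Lrwd1 were among those that still did. The call of Snrpd3 rests on its brightest probe set: the others gave -0.13 and -0.14 between the smokes in obese mice, and with the mean of all its probe sets the interaction was -0.03 (0.753). The second probe sets of Polr1d and Lrwd1 gave 0.06 each between the smokes in obese mice. That of Rgs9, dim at a mean of 4.06, gave 0.0.

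Filtered air places these differences. In DIO-SS 2960 genes (31.8%) differed from air, 2140 higher (23.0%) and 820 lower (8.82%). In DIO-MS 423 did (4.55%), 340 higher (3.66%) and 83 lower (0.893%), with 8 and 6 arrays against the same 8. After loess the counts were 2213 (1219 higher, 994 lower) and 438 (290 and 148), and with the dim-gene covariate 1054 and 438. Of the 15 largest rises, 13 were also higher than air after sidestream smoke, and of the 15 largest falls 14 were lower, Cyp1a1 being the exception. After mainstream smoke 1 rise (Gadd45g, below air) and 1 fall (Cyp1a1, above air) passed against air. The comparison of the smokes shares its arrays with both of these, so the counts are not independent.

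How much each array decided is shown in the plot of array levels and counts. Without DIO-MS 1, 2, 3 or 4 the number of genes past the threshold was 43, 27, 83 and 37, and without DIO-MS 5 or 6 it was 624 and 827. Leaving out 1 DIO-SS array gave 76 to 280. Of the 15 largest rises 4 passed without any 1 array (Mmp14, Ebf1, Cldn5 and Prodh), and of the 15 largest falls 9 did. After loess 11 rises and 14 falls passed: Col1a1 (adjusted p = 0.0676, limma), Kazald1 (0.0612), Mustn1 (0.0676), Gadd45g (0.0659) and Kcne1 (0.0801) lost the call. With the dim-gene covariate 3 rises passed (Mmp14, Cldn5 and Prodh) and 10 falls, and the falls that lost the call were Kcne1, Csf1 (0.0527), Xrn2 (0.212), Ceacam1 (0.205) and Vpreb3 (0.403). Of genes outside these 30, Hsd17b4, Plin4, Dbh and Aars lost the call after loess (0.0847, 0.0722, 0.0596 and 0.0641) and with the dim-gene covariate (0.256, 0.3, 0.546 and 0.212).

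**Figure D4:**
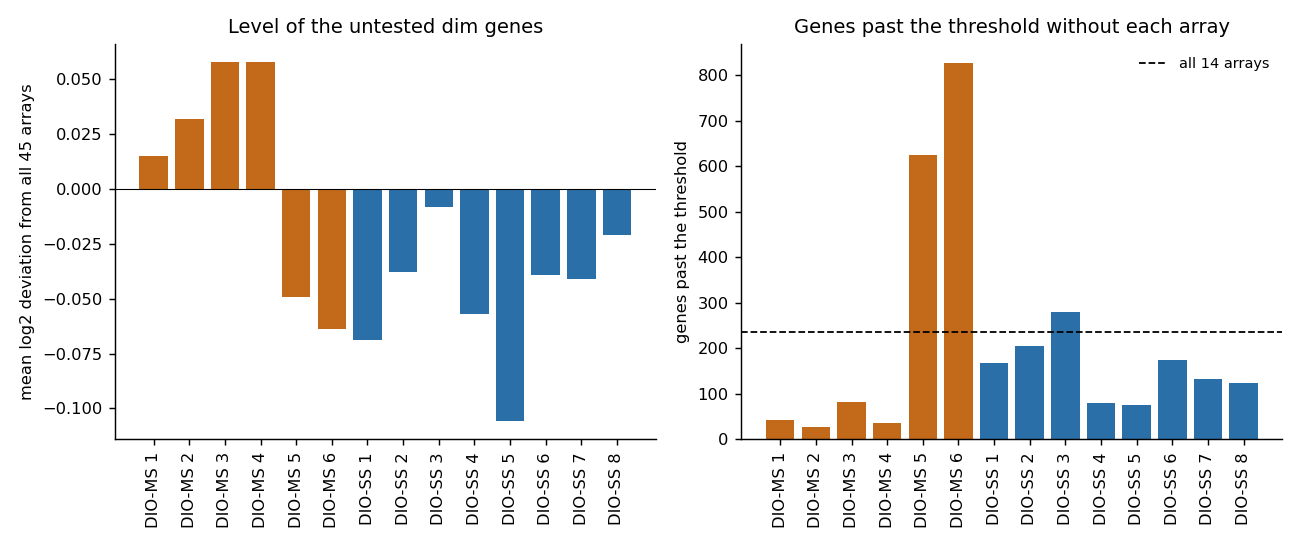
Left: mean log2 deviation of the untested dim genes on each of the 14 arrays from the mean of all 45 (bars, DIO-MS orange, DIO-SS blue). Right: number of genes past the threshold when that array is left out, with the count from all 14 arrays, 237, as a dashed line. DIO-MS 1 to 4 are the only arrays above 0 on the left and give the lowest counts among DIO-MS on the right.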

How the data were processed

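The deposited values were log2 expression values per probe set of 45 one-colour Affymetrix arrays. Per the submitters' processing notes they came from RMA (background correction, quantile normalization and summary per probe set), with no version stated there. The table held 22690 probe sets, 64 of them controls. Of the rest, the array annotation gave 1 gene for 20380 and several for 691, and 1555 were not listed there. They covered 12393 genes, each represented by its probe set with the highest mean. Genes in the lowest 25% (a mean under 4.90) were dropped, which left 9295 to test. Array medians ran from 6.20 to 6.24. Precision is limited by the number of arrays.

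The model had 1 mean per group over the 45 arrays and was run in limma 3.58.1 (R 4.3.3, lmFit, eBayes, two-sided, 42.6 residual degrees of freedom with the prior). Each comparison had its own Benjamini-Hochberg adjustment, and an adjusted p under 0.05 counted as past the threshold. A list's mean level on an array is the mean over its genes of each gene's deviation from its own mean over all 45 arrays. The procedure was tested on simulated data. Fits on genes were repeated under 16 alternatives, 3 of them chosen after seeing the data (loess, the level of the dim genes as a covariate, DIO-MS 5 and 6 left out), and without each of the 14 arrays. A further fit took every probe set on its own.

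Genes named are the 15 largest rises and falls, up to 4 genes with the smallest p of each list with a call, the 5 with the smallest p of the interaction, and a panel of 30, of which 23 did not pass; unnamed clones were left out. Members, lists and panel were chosen with earlier results of these data known. Promoter windows came from RefSeq (GRCm38.p6). Tables and figures were made with Python 3.11.15, pandas 2.3.3, numpy 2.4.6 and matplotlib 3.10.9.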

Additional observations from a re-analysis of the deposited data

Results flagged for a closer look

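In 21 of the 72 genes named, the difference between the smokes itself differed between obese and regular weight mice in limma's interaction (obese minus regular weight, log2 units, with adjusted p). Over all genes 784 of 9295 did (8.43%). Many of the 72 were named for their difference in obese mice, which is part of the interaction, and some for its p. The count of 21 is therefore raised by that choice and cannot be set against the share over all genes. The interaction was positive for Ppp1r14a (0.90, 0.00638), Ebf1 (0.57, 0.00422), Vegfc (0.54, 0.0127), Mustn1 (0.49, 0.0162), Lrwd1 (0.48, 0.00131), Snrpd3 (0.41, 0.000529), Slc44a2 (0.40, 0.0437) and Hsd17b4 (0.37, 0.0132). It was also positive, and smaller, for Aars (0.31, 0.0062), Polr1d (0.27, 0.00131), Gsta4 (0.26, 0.0155), Fads3 (0.26, 0.00993), Psmb5 (0.23, 0.00131), Csnk1d (0.21, 0.0262) and Psmc3 (0.20, 0.0128). A negative interaction was found for Zbtb16 (-1.0, 0.00638), Kcne1 (-0.76, 0.0205), Cyp1a1 (-0.75, 0.0101), Vpreb3 (-0.54, 0.0105), Rgs9 (-0.52, 0.000122) and Dbh (-0.44, 0.0149). With the dim-gene covariate 15 of the 21 lost the call, and Cyp1a1 (0.0424), Rgs9 (0.00594), Snrpd3 (0.0307), Psmb5 (0.0313), Polr1d (0.0412) and Lrwd1 (0.0353) kept it. With the atrial covariate all 21 kept it, and with the red cell covariate 19, Mustn1 and Slc44a2 being the exceptions.

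In 12 of 144 groups of arrays looked at, 1 array stood apart from the others by Dixon's criterion, which chance alone meets in about 1 of 20 groups. DIO-MS 1 was highest for Cyp1b1 (7.80, others up to 7.08), Csf1 (9.47, others up to 8.77) and Ceacam1 (7.98, others up to 7.66). DIO-MS 2 was lowest for Gadd45g (6.10, others from 6.39), Mmp2 (8.51, others from 8.71) and Pdk4 (11.20, others from 11.50). DIO-MS 3 was highest for Clmp (5.62, others up to 5.40) and Kazald1 (6.14, others up to 5.99), and DIO-MS 4 lowest for Nfil3 (6.02, others from 6.36) and Alkbh5 (8.31, others from 8.47). In DIO-SS, array 1 was highest for Plxdc1 (6.16, others up to 5.85) and array 5 for Polr1d (10.27, others up to 10.19).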

How the results depend on the processing

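The number of genes past the threshold between the smokes in obese mice (237) became 436 with every probe set on its own, 1964 with array weights, 100 after a further quantile normalization, 372 with the atrial markers as a covariate, 123 after loess, 29 with the dim-gene covariate and 1490 without DIO-MS 5 and 6. Leaving out 1 array gave 27 (DIO-MS 2) to 827 (DIO-MS 6), and 10 of 14 such fits moved the count by over 1.5 times: besides those given above for DIO-MS, the counts were 80, 76, 132 and 125 without DIO-SS 4, 5, 7 and 8. With no filter, the lowest 50% left out, the mean of all probe sets, trend and robust settings, only the groups compared, fat or red cell markers as a covariate, or the description numbers in 2 classes, it stayed within 187 to 303. Regular weight mice (541) gave 1156 with every probe set, 4 with only the groups compared, 347 with the red cell covariate, and 292 to 722 without 1 array. The interaction (784) gave 1178 with every probe set, 2023 with array weights, 342 with only the groups compared, 383 after quantile normalization, 329 and 1269 with the red cell and atrial covariates, 480 after loess, 31 with the dim-gene covariate, 1874 without DIO-MS 5 and 6, and 380 to 1361 without 1 array. DIO-SS against air (2960) gave 4579 with every probe set, 1054 with the dim-gene covariate and 2519 to 2965 without 1 array. DIO-MS against air (423) gave 714 with array weights, 133 without DIO-MS 5 and 6 and 221 to 443 without 1 array. Every probe set on its own tests more features. The causes of the other shifts were not tested.

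Same-numbered mice of the groups are not stated to be pairs. The replicate block by title number gave 213 genes and the replicate block by description number 90, of which 177 and 88 were among the 237. Deviations of same-numbered DIO-MS and DIO-SS arrays correlated between -0.07 and 0.25 by title number (2 of 6 highest with their own number) and between -0.29 and 0.25 by description number (1 of 6), so the numbers were not taken as pairing.

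Of the values of named genes under all these settings except every probe set on its own, 2666 kept direction and side of the threshold, 376 lost the call, 39 gained one and 2 reversed: with the mean of all probe sets, Snrpd3 was at -0.04 between the smokes (adjusted p = 0.603, limma) and at -0.03 in the interaction (0.753).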
